A study of Rattus norvegicus with 12 samples.

Results

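Solute carriers are the largest group of membrane transport proteins, and their genes are named Slc with a family number, a letter and a member number. Members of the rat array whose single gene symbol had that form were taken as solute carrier genes: 182 of 18144 array features, which carried 85 gene symbols. Spots that shared an accession and a symbol were averaged into 1 probe, giving 92 Slc probes of 12537 probes in all, and 90 of the 92 had 2 spots. Both symbols Slc4a1ap and Slc7a6os match the naming rule without naming a carrier, the first being an adaptor protein of the anion exchanger and the second a gene on the strand opposite to Slc7a6. They are kept as members and described apart from the 5 substrate classes, which were set by family number.

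The arrays measured RNA from tissue labelled NTS, punched from 250 µm slices of rats. One group of 6 rats is labelled alcoholic and the other group of 6 control, the labels join each alcoholic rat with a control rat as a numbered pair, and the title of the series calls the treatment ethanol. The labels give no dose, route, duration, strain or age, and do not say what NTS stands for. On each of the 12 arrays the RNA of 1 rat, amplified and labelled with Cy5, was hybridised with a reference RNA labelled with Cy3. The value of a probe is therefore a log2 ratio of sample to reference, a direction taken from the dyes as likely and not stated with the values. If the ratios run the other way, every sign below turns, and highest and lowest, above and below, and positive and negative change places. The median of its array was subtracted from each value, so 0 stands for the median feature of an array and a value of 1 for a ratio 2-fold above it. Such ratios are not transcript levels, since a high one can come from much RNA in the sample or little in the reference. Nothing in the labels tells what the reference RNA was made of.

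Solute carriers move amino acids, sugars, nucleosides, vitamins, metals and other ions across the plasma membrane and the membranes of organelles. In the brain they clear transmitters from the extracellular space, load them into synaptic vesicles, bring glucose and lactate to cells and set the chloride gradient of neurons, while the Slc25 family exchanges metabolites across the inner mitochondrial membrane.

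Array medians before centring lay between 0.35 and 1.85. Exact zeros, 484 to 726 per array, were treated as missing values; among the Slc features they made up 35 of 2184 values (1.6%), against 3.35% over all features, and 89 of 92 Slc probes were measured on every array (96.7%, against 87.9% of all probes). The arrays of pairs 1 and 2 stood apart from those of pairs 3 to 6. Over the 11017 probes measured on all arrays, deviations of the pair means correlated with r = 0.312 between pairs 1 and 2 and with r of -0.509 to -0.194 between either of them and pairs 3 to 6. Deviations from a common mean sum to 0 over the pairs, so some negative correlation arises by arithmetic alone. The weakest, at -0.215 and -0.194, were those of pairs 1 and 2 with pair 3, which therefore show no clear separation. Pairs 3 to 6 were no uniform block, with r of -0.31 to 0.104 among themselves, the lowest between pairs 3 and 6. The first principal component of the means of both rats of a pair held 42.5% of their variance. It gave pairs 1 and 2 positive scores (0.457 and 0.64) and pairs 3 to 6 negative ones (-0.439 to -0.0697), with pair 3 near the middle at -0.0697. These coefficients run across probes, which are no independent replicates. Since each pair holds 1 rat of each group, comparisons within pairs are not affected by what a pair shares, and counts and the main single values are also given for pairs 3 to 6 alone. Of 55 marker genes of 7 cell types that a punch can hold, 32 were measured, on 35 tested probes, and 0 of these probes were called between the groups. All 5 astrocyte marker probes were on the positive side of the difference (median 0.22) and all 6 endothelial ones on the negative side (median -0.08); their part in the results was not tested.

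Between alcoholic and control rats no solute carrier gene was called as higher or lower. Fitted with limma and a block for each animal pair, 0 of 91 tested Slc probes passed an adjusted p of 0.05, with an adjusted p of 0.999 for each of the members, and 0 of all 11852 probes passed either (0%). At an unadjusted p under 0.05 there was 1 Slc probe, Slc7a1, on the positive side, where 2.37% of all probes tested reached that mark (1.3% positive and 1.07% negative). Slc probes were split into 49 on the positive and 42 on the negative side, or 53.8% positive against 51.8% of all probes. Without centring of the arrays the split was 34 to 57. The median difference was 0.02 on the log2 scale over the members and 0.01 over all probes. In this bulk tissue, fewer cells of a type and less RNA per cell cannot be told apart.

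The intervals bound the size of the differences. For 84 of 91 Slc probes (92.3%, against 86.3% of all probes) the 95% interval of the difference lay within a 2-fold change either way. For 72 of them (79.1%, against 65.9%) it lay within a 1.5-fold change. More of the Slc probes than of all probes were measured on every array. Among probes measured on every array, the counts were 84 and 72 of 89 Slc probes, against 10016 and 7707 of all 11017. Only 1 member, Slc25a13, had a difference beyond 1.5-fold either way (background 5.29%), and its value rests on 1 spot, as described below. Of the 89 Slc probes measured in every pair, 0 went one way in all 6 pairs, against 1.61% of all such probes, and in 0 did the alcoholic and control arrays not overlap (0.00908%). In pairs 3 to 6 alone, 39 Slc probes lay on the positive and 52 on the negative side and 0 were called; pairs 1 and 2 alone gave 49 and 41, with 0 called. At an unadjusted p under 0.05 these subsets held 0 and 1 Slc probe. Between all pairs and pairs 3 to 6 alone, 20 of 91 Slc probes changed sign and 14 moved by over 1 SE.

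**Figure D1:**
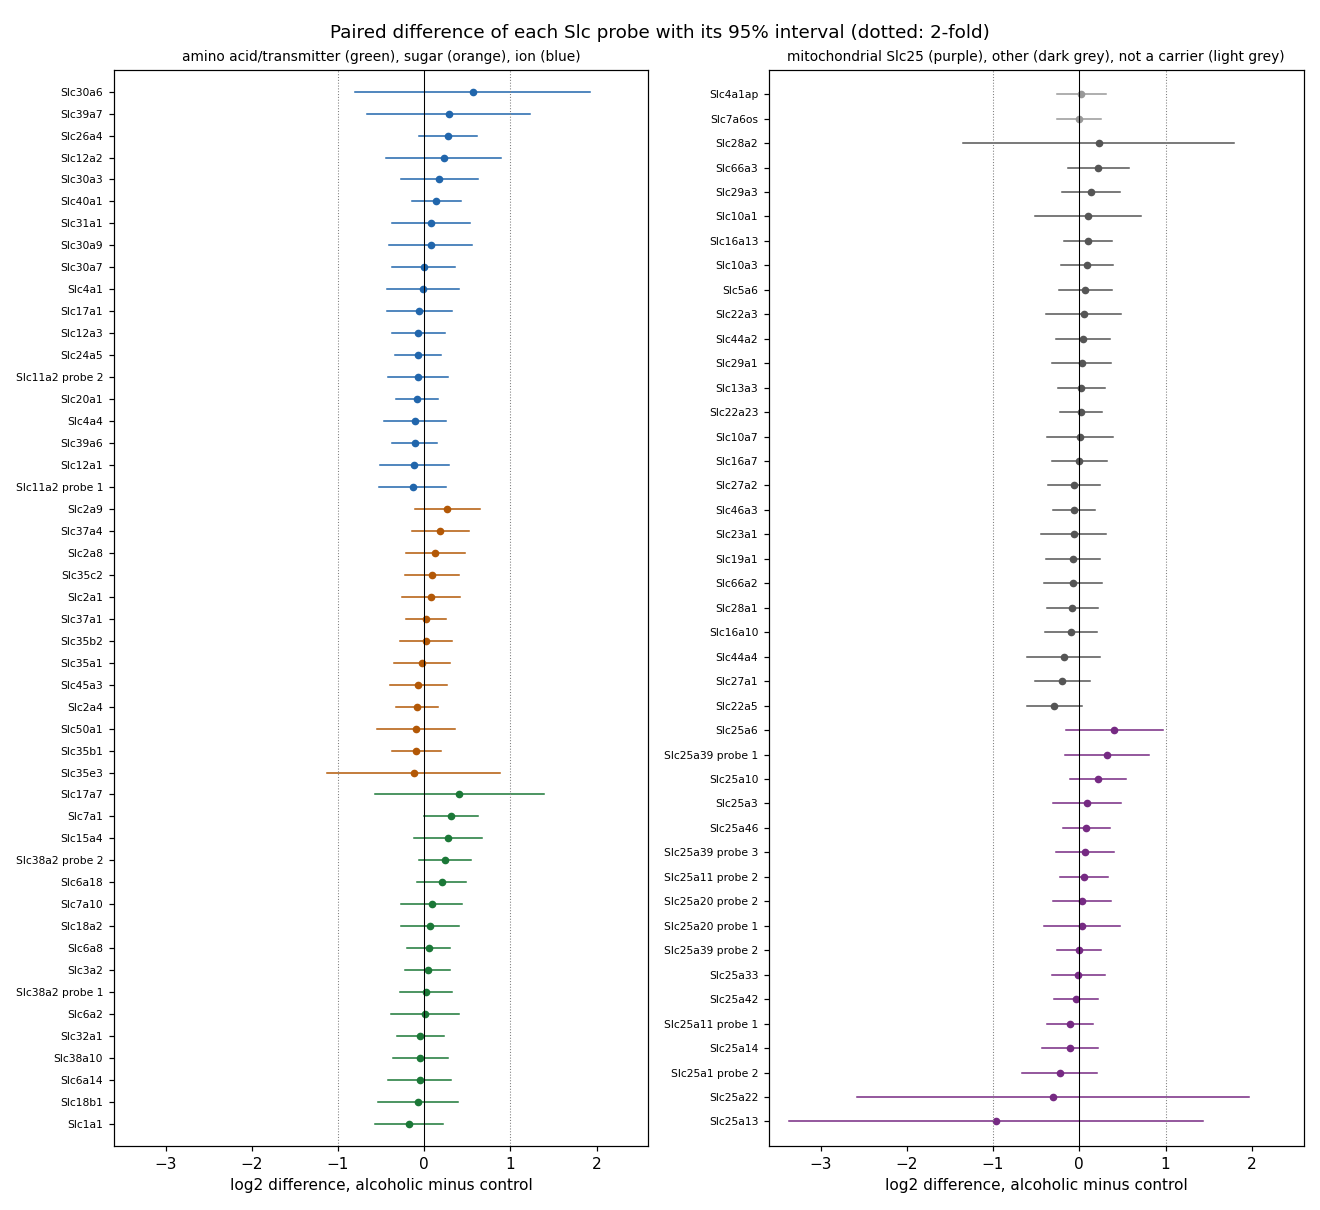
Each point is the log2 difference, alcoholic minus control, of 1 of the 91 tested Slc probes and each line its 95% interval from limma's paired fit; colours give the substrate class and dotted lines mark a 2-fold change. For 84 probes the whole interval lies between the dotted lines, while Slc25a13, Slc25a22, Slc30a6 and Slc28a2 have the widest intervals.

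Among the carriers of amino acids and transmitters, 11 of 16 probes lay on the positive and 5 on the negative side of the difference, with a median of 0.05, and 0 were called. Slc7a1, the main plasma membrane carrier of arginine and lysine, had the smallest p of all members. Its ratio in control rats ranged from -2.45 to -1.75 with a median of -2.10, and in alcoholic rats from -2.08 to -1.36 with a median of -1.85. The ranges overlap between -2.08 and -1.75. The differences of its pairs 1 to 6 were 0.64, 0.21, 0.20, 0.70, -0.06 and 0.18, so 5 of 6 pairs were positive. The estimate was 0.31 (SE 0.13, 95% interval 0.00 to 0.63; limma unadjusted p = 0.0492, adjusted p = 0.999), and it was 0.26 in pairs 3 to 6 alone. Slc38a2, a sodium-coupled carrier of small neutral amino acids, had 2 probes, of which the second differed by 0.24 (SE 0.13, 5 of 6 pairs positive) and the first by 0.02. Slc15a4, a lysosomal carrier of histidine and peptides, ranged from 0.41 to 1.41 in control and from 1.00 to 1.27 in alcoholic rats, with medians of 0.71 and 1.06. The spread of Slc15a4 was narrower among the alcoholic rats (SD 0.12, n = 6) than among the controls (SD 0.40, n = 6). In Slc6a18, of the same class, it was wider among the alcoholic rats (SD 0.42 against 0.20), and differences in spread were not tested. Pair 5 went against the other pairs in Slc7a1, Slc38a2 probe 2 and Slc15a4, with differences of -0.06, -0.15 and -0.40.

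Among well known brain transporters, Slc1a2, Slc1a3, Slc2a3, Slc6a4, Slc6a11, Slc12a5, Slc16a1 and Slc17a6 have no single-symbol feature here and were not analysed. The transmitter carriers that were measured had differences near 0 or wide intervals. Slc6a2, the noradrenaline transporter of the plasma membrane, stood at 1.86 ± 0.37 (SD, n = 6) in control and 1.87 ± 0.45 (SD, n = 6) in alcoholic rats, with a difference of 0.01 (95% interval -0.39 to 0.41). Slc18a2, which loads monoamines into vesicles, differed by 0.07 (-0.27 to 0.40). Slc32a1, which loads GABA and glycine into vesicles, differed by -0.04 (-0.31 to 0.23). For these genes of inhibitory and monoamine transmission the intervals stay inside a 1.5-fold change. Slc17a7, which encodes the vesicular glutamate transporter VGLUT1, ranged from 1.09 to 2.92 in control and from 1.13 to 4.66 in alcoholic rats. Its difference of 0.40 had an interval from -0.58 to 1.39, and came to 0.007 without pair 3 and to 0.757 without pair 6. In the alcoholic rat of pair 3 the 2 spots of the probe read 1.04 and 8.29, so the high value comes from 1 spot. The spots disagreed on other arrays too, such as 1.21 and 5.07 in the alcoholic rat of pair 1. Slc1a1, a glutamate transporter of neurons, differed by -0.18 (-0.57 to 0.22). Other members of the class lay between -0.07 (Slc18b1, a vesicular polyamine carrier) and 0.20 (Slc6a18, a carrier of neutral amino acids known from kidney).

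Sugar and nucleotide sugar carriers had 7 of 13 probes on the positive and 6 on the negative side, with a median of 0.02 and 0 called. Slc2a9, a urate carrier of the glucose transporter family, ranged from -2.09 to -1 in control (median -1.40) and from -1.51 to -0.87 in alcoholic rats (median -1.32). Most of its difference lay in the first pairs: pairs 1 and 2 differed by 0.94 and 0.58, and pairs 3 to 6 by 0, -0.06, 0.005 and 0.15. The estimate was 0.27 (SE 0.16) over all pairs and 0.02 in pairs 3 to 6 alone. Slc37a4, which moves phosphorylated glucose into the lumen of the endoplasmic reticulum, had a difference of 0.19 (3 of 6 pairs positive, SE 0.14). Slc2a8, an intracellular hexose carrier, differed by 0.13 (5 of 6 pairs positive). The glucose transporters known from the blood-brain barrier and from insulin-responsive tissue, Slc2a1 and Slc2a4, differed by 0.08 (95% interval -0.26 to 0.42) and -0.09 (-0.33 to 0.16). The 5 nucleotide sugar and related carriers of family 35 lay between -0.12 (Slc35e3) and 0.09 (Slc35c2). The 95% interval of Slc35e3 was wide, from -1.13 to 0.88, and its estimate ran from -0.485 to 0.25 when single pairs were left out. In the control rat of pair 6 its spots read 1.61 and 4.77.

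Of the ion carriers, 8 of 19 probes lay on the positive and 11 on the negative side, with a median of -0.015 and 0 called. Slc26a4, the chloride and iodide exchanger pendrin, ranged from -3.90 to -3.15 in control (median -3.595) and from -3.71 to -2.62 in alcoholic rats (median -3.40). It was positive in 5 of 6 pairs, from 0.12 in pair 1 to 0.80 in pair 2, and negative in pair 6 (-0.17). The estimate was 0.28 (SE 0.14, limma unadjusted p = 0.0917, adjusted p = 0.999). Slc40a1, the iron exporter ferroportin, had 5 of 6 pairs between 0.14 and 0.33 and pair 6 at -0.34, for an estimate of 0.14 (SE 0.12). Slc39a6, a zinc importer, differed by -0.11 (4 of 6 pairs negative). These 3 had the smallest p of the class, and in each of them alcoholic and control arrays overlap. Slc12a2, the chloride-loading carrier NKCC1, differed by 0.22 with an interval from -0.44 to 0.89. Both kidney cotransporters of its family, Slc12a1 and Slc12a3, differed by -0.11 and -0.07.

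The largest positive difference of all members, negative if the ratios run the other way, was that of Slc30a6, a zinc carrier of the Golgi, at 0.56 (95% interval -0.80 to 1.93). In alcoholic rats it ranged from -2.33 to 2.38 with a median of -2.11, and in control rats from -2.61 to -1.50. Only the alcoholic rat of pair 2 lay outside the control range on the high side. There 1 spot of the probe read 2.38 and the other was an exact zero in the file, hence missing. Without pair 2 the difference was -0.12. Slc39a7, a zinc carrier of the endoplasmic reticulum, repeated this on the same array: the alcoholic rat of pair 2 stood at 1.60, read from 1 spot with the other missing, and the other alcoholic rats between -1.78 and -1.28. Its difference went from 0.28 to -0.19 without that pair.

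Among the mitochondrial Slc25 carriers, 9 of 17 tested probes lay on the positive and 8 on the negative side, with a median of 0.03 and 0 called. Slc25a6, listed as an ADP/ATP carrier, ranged from 1.55 to 2.87 in control (median 2.05) and from 1.86 to 3.10 in alcoholic rats (median 2.47). Its pairs differed by 0.31, 1.52, 0.34, 0.43, -0.58 and 0.41. The estimate of 0.41 (SE 0.24) fell to 0.18 without pair 2, where the spots of the alcoholic array read 1.85 and 4.36. Slc25a10, the dicarboxylate carrier, differed by 0.22 (SE 0.14, 4 of 6 pairs positive). Slc25a39, a carrier of glutathione, differed by 0.32 (SE 0.21) on its first probe and by -0.004 and 0.07 on the others, and the first probe came to 0.11 without pair 1. The citrate carrier Slc25a1 differed by -0.23 (SE 0.19) on its second probe. Its first was measured in only 3 of the control rats and was not tested. Slc25a13, an aspartate and glutamate carrier, had the largest negative difference, -0.97 (95% interval -3.37 to 1.43). It stood between -0.71 and 0.69 in 5 control rats and at 6.85 in the control rat of pair 6, where 1 spot was read and the other missing. Without pair 6 its difference was 0.28. The others of the family, among them the phosphate carrier Slc25a3 at 0.09 and the carnitine carrier Slc25a20 at 0.03 on both of its probes, lay between -0.30 (Slc25a22, the glutamate carrier, SE 0.95) and 0.09.

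The remaining 24 carriers, of monocarboxylates, nucleosides, organic cations, vitamins, bile acids, choline and fatty acids, had 13 probes on the positive and 11 on the negative side, with a median of 0.01 and 0 called. Slc22a5, the plasma membrane carrier of carnitine, had the smallest p of the class. It ranged from -1.84 to -0.80 in control (median -1.01) and from -2.36 to -0.96 in alcoholic rats (median -1.46). The pairs differed by -0.30, 0.06, -0.68, -0.32, -0.53 and 0.04, and the estimate was -0.29 (SE 0.13, 95% interval -0.60 to 0.03; limma unadjusted p = 0.0666, adjusted p = 0.999). In pairs 3 to 6 alone it was -0.37. Slc27a1, which takes up fatty acids, differed by -0.20 (SE 0.14, 5 of 6 pairs negative). Slc66a3 differed by 0.22 (SE 0.15), with an SD of 0.06 among alcoholic and 0.35 among control rats (n = 6 each). The reverse was found in Slc16a7 of the same class, with an SD of 0.35 among alcoholic and 0.08 among control rats. Slc29a1, the adenosine carrier ENT1 that ethanol is known to inhibit, differed by 0.03 (95% interval -0.31 to 0.37). Slc16a13 and Slc16a10, of the monocarboxylate family, differed by 0.10 and -0.09. Slc4a1ap and Slc7a6os, the members that are no carriers, differed by 0.02 and -0.006.

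In pairs 3 to 6 alone, the other probes with the smallest p of their class had these differences. Among amino acid carriers, Slc38a2 probe 2 differed by 0.25 and Slc15a4 by 0.27, near their values over all pairs. Among sugar carriers, Slc37a4 differed by 0.17 and Slc2a8 by 0.20. Of the ion carriers, Slc26a4 differed by 0.19, Slc40a1 by 0.0975 and Slc39a6 by -0.13. The mitochondrial probes picked this way were closer to 0 than over all pairs, with Slc25a6 at 0.15, Slc25a10 at 0.14 and Slc25a39 probe 1 at 0.06. This did not hold for the whole class: Slc25a1 probe 2, for example, stood at -0.30, against -0.23 over all pairs. In the remaining class Slc66a3 differed by 0.12 and Slc27a1 by -0.17. Slc30a6, Slc39a7 and Slc2a1 changed sign, to -0.25, -0.18 and -0.085.

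**Figure D2:**
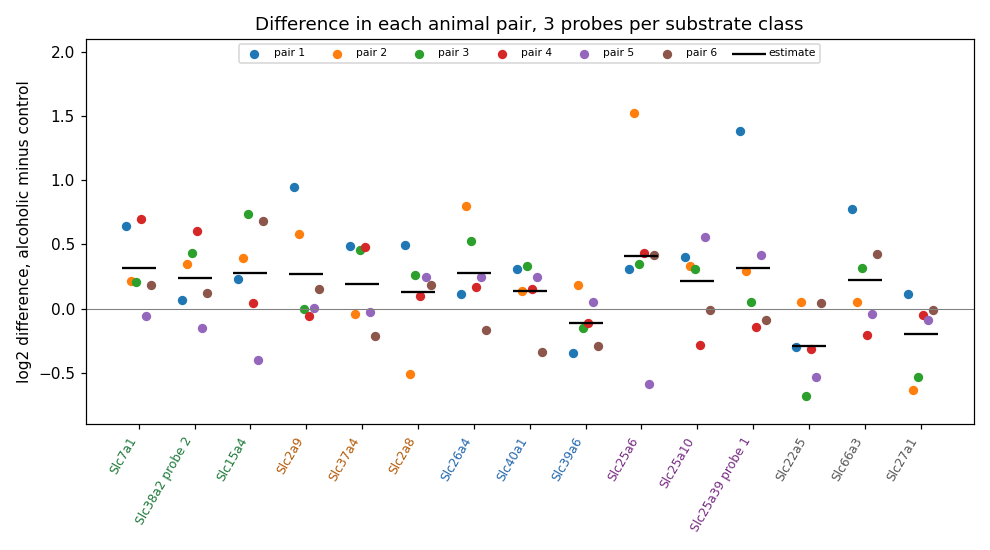
Points are the log2 differences, alcoholic minus control, of the 6 animal pairs for the 3 probes of each substrate class with the smallest p; bars are the estimates of the paired fit. Each of the 15 probes has pairs on both sides of 0.

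Other transport genes, which the naming rule does not take, gave no call either. Of 44 probes for organic anion transporters named Slco, ABC transporters, aquaporins and the sodium-potassium, calcium and vacuolar ATPases, 21 lay on the positive and 23 on the negative side, with a median of -0.01, and 0 were called. The 16 probes of the vacuolar ATPase, the proton pump that drives vesicular loading by carriers such as Slc17a7, Slc18a2 and Slc32a1, were split 8 to 8.

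Against the reference, most members had a ratio that repeated from rat to rat. In the 6 control arrays the mean ratio of 31 of 91 Slc probes was above the array median at an adjusted p of 0.05 (limma; 40.2% of all probes were) and that of 41 was below it (38.6% of all). In the 6 alcoholic arrays, which hold the other rats, 31 of 92 were above (41.4% of all) and 38 below (40% of all). Of these, 29 were above and 36 below in both groups, and 0 changed sides. Among all 12537 probes 4547 were above and 4544 below in both groups and 0 changed sides, so this agreement is not particular to the members. Either way, 79.1% of the Slc probes were called in control arrays, near the 78.7% of all probes, and 75% in alcoholic arrays, where 81.4% of all probes were. Ratios over 4-fold from the array median were found for 13 of 91 Slc probes in control rats (14.3%, against 22.7% of all) and for 14 of 92 in alcoholic rats (15.2%, against 23.3%). Arrays of pairs 3 to 6 alone gave 32 above and 38 below in control rats and 33 and 39 in alcoholic rats. Among probes measured on every array, 29 of 89 Slc probes were above and 41 below in control rats, against 4007 and 4592 of all 11017.

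**Figure D3:**
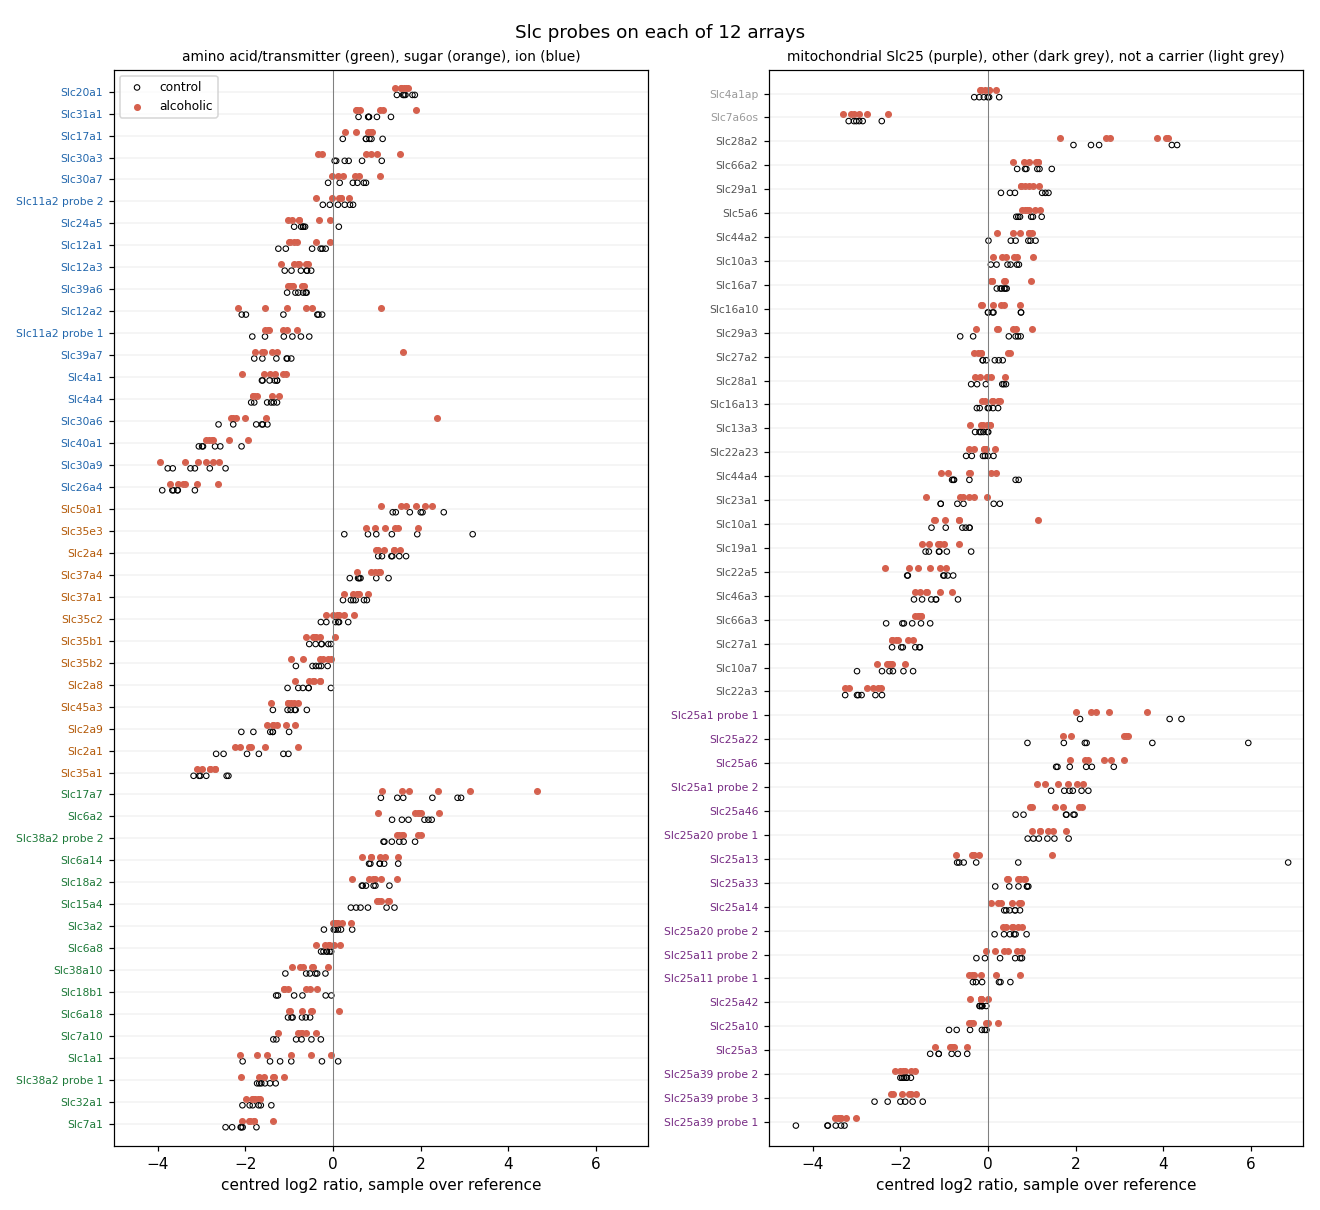
Centred log2 ratio of sample to reference of each Slc probe on each array, with open circles for the 6 control and filled circles for the 6 alcoholic rats; probes are ordered by their mean in control rats within a class. Both groups overlap for every probe, and single arrays of Slc25a13, Slc30a6 and Slc39a7 lie far to the right.

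Carriers of amino acids and transmitters lay on both sides, with 6 of 16 probes called above and 8 below the array median in control rats, and the same counts in alcoholic rats (all probes: 40.2% above and 38.6% below in control, 41.4% and 40% in alcoholic rats). Slc17a7 (2.04 ± 0.76), Slc6a2 (1.86 ± 0.37) and Slc18a2 (0.88 ± 0.24; SD, n = 6 control rats) were above it in all 12 arrays, and Slc32a1 was below it in all 12 arrays at -1.76 ± 0.23 in control rats. Vesicular carriers of glutamate and monoamines had ratios above the array median and that of GABA and glycine a ratio below it. Slc6a14, an amino acid carrier known from epithelia, was at 1.08 ± 0.24, and Slc6a18 at -0.79 ± 0.20. The creatine carrier Slc6a8 (-0.15) and the heavy chain Slc3a2 (0.10), which brings amino acid carriers to the surface, were not called from the array median.

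Of 19 ion carrier probes, 13 were called below and 5 above in control rats (38.6% and 40.2% of all probes). In alcoholic rats 10 were below and 4 above (40% and 41.4%). Of the 11017 probes measured on every array, 4592 were below and 4007 above in control rats, and 4763 and 4126 in alcoholic rats. The ion carriers, all measured on every array, had a median ratio of -0.77 in control and -0.81 in alcoholic rats. All probes measured on every array had -0.10 in both groups. The lowest, or highest if the ratios run the other way, were Slc26a4 (-3.57 ± 0.24), Slc30a9 (-3.18 ± 0.50), a zinc carrier of mitochondria, and Slc40a1 (-2.73 ± 0.37). The highest value of these 3 on any of the 12 arrays was -1.94, in Slc40a1. On the other side stood Slc20a1, a phosphate carrier, at 1.67 ± 0.15, and Slc31a1, the copper importer, at 0.89 ± 0.25. Slc4a4, the sodium bicarbonate carrier of astrocytes, was at -1.53 ± 0.24, and Slc4a1, the anion exchanger of red cells, at -1.42 ± 0.16. Carriers known mainly from kidney had ratios of either sign, with Slc17a1 at 0.76 ± 0.30, Slc12a3 at -0.74 ± 0.23 and Slc12a1 at -0.58 ± 0.46.

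Of the mitochondrial carriers, 8 of 17 probes were called above and 5 below in control rats (40.2% and 38.6% of all probes), and 10 of 18 above and 4 below in alcoholic rats (41.4% and 40%). Their median ratio was 0.52 in control and 0.42 in alcoholic rats. Among those above were Slc25a22 (2.80 ± 1.80), Slc25a6 (2.08 ± 0.51), Slc25a1 on its second probe (1.90 ± 0.30) and Slc25a46 (1.49 ± 0.60), an outer membrane protein of the family. The first probe of Slc25a39 was the lowest of all members at -3.64 ± 0.40, or the highest if the ratios run the other way. Of the sugar carriers, Slc50a1 (1.86 ± 0.43) and Slc2a4 (1.34 ± 0.24) were above, and Slc35a1, which brings CMP-sialic acid to the Golgi, was lowest at -2.83 ± 0.34. In the remaining class the nucleoside carrier Slc28a2 was highest at 3.07 ± 1.10 (SD, n = 5 control rats) and the organic cation carrier Slc22a3 lowest at -2.85 ± 0.30. Slc28a2 ranged from 1.95 to 4.32 in control (median 2.54) and from 1.65 to 4.11 in alcoholic rats (median 3.32). Slc25a22 ranged from 0.90 to 5.94 in control (median 2.23) and from 1.71 to 3.19 in alcoholic rats (median 3.11). In Slc28a2 and in Slc25a22 both spots were read on only 6 arrays. The values 0.90 and 5.94 of Slc25a22 came from a single spot with the other missing. The same holds for 1.95, 1.65 and 4.11 of Slc28a2, while its 4.32 came from both spots. Among the lowest, Slc30a9 ranged from -3.77 to -2.45 in control and from -3.94 to -2.61 in alcoholic rats, with medians of -3.20 and -2.99. Wide spread was found at high ratios (Slc28a2, Slc25a22 and Slc17a7) and at low ones (Slc12a2 at -1.02 ± 0.85 and Slc1a1 at -0.96 ± 0.80; SD, n = 6 control rats), while Slc20a1 had a high ratio and an SD of 0.15. The median SD within groups was 0.31 over the Slc probes and 0.37 over all probes.

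Different probes of 1 symbol often disagreed in ratio. Slc38a2 was the extreme case. Its first probe (features 2386 and 2387) stood between -2.10 and -1.10 on all 12 arrays and its second (features 15773 and 15774) between 1.16 and 2.00. The second probe exceeded the first by 3.11 on average, and by at least 2.46 on every array. Averaged by symbol, Slc38a2 came to -0.05 in control and 0.08 in alcoholic rats, values at which neither probe stood. For Slc25a39 the first probe was lower than the second by 1.58 on average and by at least 1.24 on every array. The 2 neighbouring spots of that symbol with no accession, treated as separate probes, differed by -0.07 on average. Slc11a2, the iron importer DMT1, had probes at -1.18 and 0.12 over all arrays, the second higher on every array by 0.31 to 1.83. Slc25a1 had 2 probes 1.21 apart on the 8 arrays that measured both, Slc25a20 probes at 1.32 and 0.54, and Slc25a11 probes at -0.005 and 0.37. Which probe measures the gene it is named for cannot be read from these values, and the same holds for genes with a single probe.

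**Figure D4:**
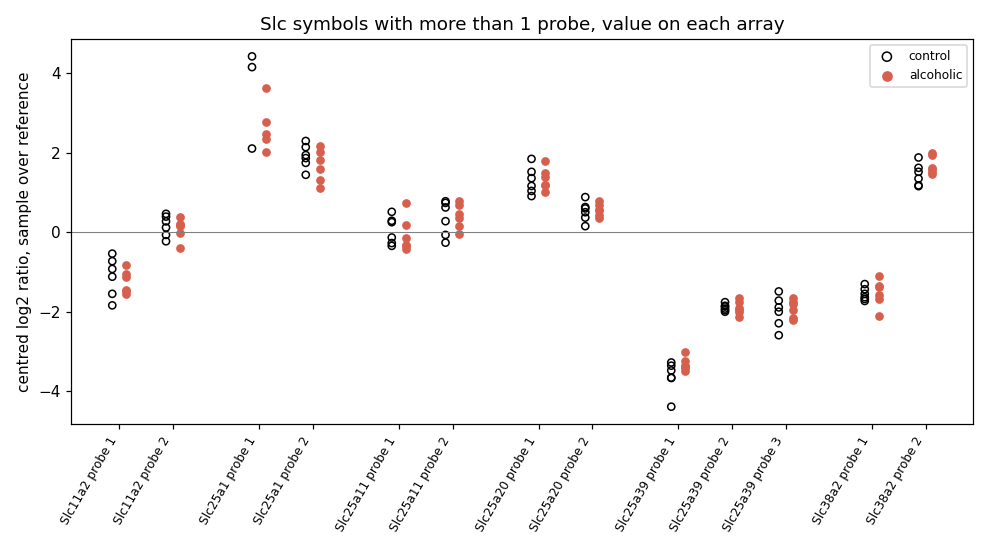
Centred log2 ratio on each array of the 6 Slc symbols with more than 1 probe, with open circles for control and filled circles for alcoholic rats. The clouds of the 2 Slc38a2 probes are 3.11 apart on average and do not overlap, and the first Slc25a39 probe lies below the other 2.

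For 90 Slc probes with 2 spots the median SD between spots on an array was 0.20, against a median SD between rats of a group of 0.31, and the spot SD was the smaller for 72 of them. In 6 probes the spot SD was over 0.5: Slc17a7 (1.94), Slc25a22 (1.63), Slc25a1 probe 1 (1.27), Slc28a2 (1.16), Slc35e3 (0.72) and Slc25a6 (0.58). All 6 had mean ratios above 1 in both groups.

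Some members differed by pair. Of the 89 complete Slc probes, 9 had the 4 arrays of pairs 1 and 2 apart from the other 8 with no overlap, 3 above and 6 below them. That is 10.1%, and the same share was found over all probes (10.1%: 4.13% above and 5.94% below), so the members are not particular in this. The split into these pairs was noticed in the values, the labels name no batch, and it was not tested. Slc12a2, NKCC1, ranged from -2.17 to -1.56 on the arrays of pairs 1 and 2 and from -1.13 to 1.09 on the others, a mean difference of -1.56. The spot SD of these 9 probes ran from 0.07 (Slc2a4) to 0.36 (Slc25a46), with Slc12a2 at 0.13. Slc1a1, the neuronal glutamate transporter, was above instead, from -0.49 to 0.12 against -2.12 to -0.95, a mean difference of 1.33. The mean difference, pairs 1 and 2 minus the others, was -0.89 for Slc2a1, the glucose transporter of the blood-brain barrier, -1.01 for the mitochondrial Slc25a46, -0.94 for the vesicular zinc carrier Slc30a3, -0.885 for the lysosomal nucleoside carrier Slc29a3 and -0.38 for Slc2a4. The vitamin C carrier Slc23a1 was higher in these pairs by 0.83 and the choline carrier family member Slc44a4 by 1.10. For Slc12a2, Slc1a1 and Slc2a1 the differences between alcoholic and control rats were 0.22, -0.18 and 0.08. Since these probes were picked for their gap between pairs, the sizes of the pair and group differences cannot be compared. Among 34 complete marker probes of the cell types, 1 was apart above (Elavl3, of neurons) and 2 were apart below (Mag, of oligodendrocytes, and a probe of Cdh5, of endothelium). Their part in the pattern was not tested.

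**Figure D5:**
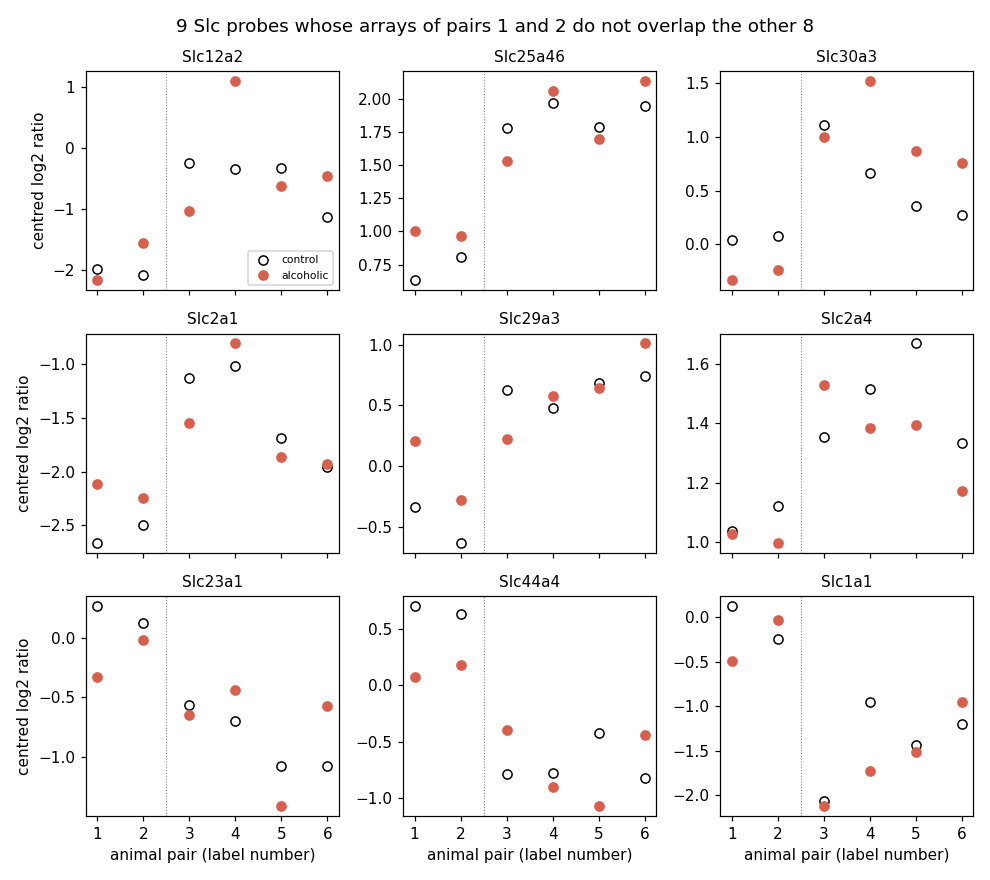
Centred log2 ratio by animal pair for the 9 Slc probes whose arrays of pairs 1 and 2 do not overlap the other 8, with open circles for control and filled circles for alcoholic rats; the dotted line separates pairs 1 and 2 from pairs 3 to 6. Slc12a2 lies between -2.17 and -1.56 left of the line and between -1.13 and 1.09 right of it, and Slc1a1 between -0.49 and 0.12 left and -2.12 and -0.95 right.

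By pair, the members as a whole shifted little and not in one direction. The median of the difference over the 89 complete Slc probes was 0.08, 0.025, 0.11, 0.025, -0.06 and -0.025 in pairs 1 to 6, where that of all probes was 0.07, 0, 0, 0, 0.02 and -0.055. Pair 5 had 30 of 89 members on the positive side (33.7%, against 51.6% of all probes) and pair 1 had 54 (60.7%, against 56.9%). For amino acid and transmitter carriers 14 of 16 lay on the positive side in pair 1 and 5 of 16 in pair 5. Mitochondrial carriers went from 12 of 16 in pair 1 to 4 of 16 in pair 5. The SD of the differences over members was between 0.29 in pair 5 and 0.86 in pair 6, the latter holding the single spot of Slc25a13.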

How the data were processed

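The authors' deposited table holds log2 ratios of 18144 features on 12 arrays, but the labels name no background correction, filter or normalization. Base 2 is inferred from the values, the largest being 13.92. Symbols come from the probe annotation, which was not checked against probe sequences: 10118 features have a single one, 1092 have several and 6934 have no symbol. Exact zeros were set to missing, the array median was subtracted, and features of one accession were averaged. Slc members were found by symbol. Every probe measured in both rats of 4 or more pairs entered the lmFit and eBayes steps of limma 3.58.1, run under R 4.3.3, the animal pair being a fixed block, and p-values were Benjamini-Hochberg adjusted over all of them. Ratios against the reference were tested in each group alone with at least 4 values. The fits were tested on simulated data.

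The labels state the pairs. Deviations of the rats of a pair correlated with r of 0.273, 0.345, 0.0373, 0.441, 0.226 and 0.0827 for pairs 1 to 6 (mean 0.234, against -0.0468 for rats of different pairs), and 3 of 6 alcoholic arrays correlated best with their own control. Nothing says how rats were housed or arrays were run. The p-values between the groups measure the spread of the alcoholic minus control differences over the pairs. Those against the reference measure the spread between the rats of a group. With 1 array per rat, both spreads include the noise of the array measurement. Named genes were every Slc member, with values by array for the 3 probes with the smallest p in each class, the highest and lowest ratios, symbols whose probes disagree and a short list of carriers. Members and lists were chosen with earlier results of these data known. Alternatives changed the block, the zeros, the centring and scaling, the averaging, the filter and the pairs used.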

Additional observations from a re-analysis of the deposited data

Results flagged for a closer look

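Among 183 sets of 4 to 6 arrays (1 probe in 1 group), 9 held a single rat that stood far outside the rest. The rule used for this has a chance count of about 9. What that count assumes about the spread of values was not tested, so it does not tell whether any of these values arose by chance. Of the 9, 3 were on the array of the alcoholic rat of pair 2. Among alcoholic rats, that of pair 2 stood at 2.38 in Slc30a6 (the others from -2.33 to -1.52), at 1.60 in Slc39a7 (-1.78 to -1.28) and at 1.15 in Slc10a1, the bile acid carrier of liver (-1.24 to -0.66). Both spots of Slc10a1 were high there, at 1.20 and 1.09, while Slc30a6 and Slc39a7 had 1 spot each. The alcoholic rat of pair 3 stood at 0.99 in Slc16a7, the lactate carrier of neurons (0.06 to 0.38), with spots at 1.03 and 0.94, and at -1.41 in Slc45a3 (-1.02 to -0.80). The alcoholic rat of pair 4 stood at 1.47 in Slc25a13 (-0.73 to -0.20), with spots at 1.86 and 1.08.

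Among control rats, that of pair 6 stood at 6.85 in Slc25a13 (-0.71 to 0.69), that of pair 4 at 0.14 in Slc24a5, a sodium and calcium exchanger of pigment cells (-0.89 to -0.64), and that of pair 1 at -4.38 in Slc25a39 probe 1 (-3.67 to -3.27). Slc25a13 of pair 4 was the highest alcoholic and, at 0.69, the second highest control value of that probe.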

How the results depend on the processing

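No Slc probe was called between the groups under the 18 alternatives run, the fit without the pair block among them, which left 0 members with an unadjusted p under 0.05 (limma), against 1 with the replicate block; the block changed no call. Subsets of pairs were added after the values were seen. Leaving out each pair in turn also gave 0 to 0 called, and 0 to 3 Slc probes at an unadjusted p under 0.05. Single values are loose: 37 of 91 probes kept their sign in each fit that left out a pair, and 85 moved by over 1.5 times in at least 1 of them. Slc7a1 ranged from 0.24 to 0.39 and Slc22a5 from -0.36 to -0.21. Over 10 other settings 57 of 91 kept their sign. The sign changed for 22 of 90 with each feature on its own, where only the first spot of a probe was compared with the probe. Without centring it changed for 15 (there 2 of all probes were called, neither an Slc probe). It changed for 4 with scaled arrays, 2 each with zeros kept and averaging by symbol and 0 under the other 5. It changed for 20 of 91 in pairs 3 to 6 alone and for 24 of 90 in pairs 1 and 2 alone, where 46 moved by over 1 SE. Against the reference, leaving out a rat gave 69 to 73 called members in control and 67 to 75 in alcoholic rats, against 72 and 69. With each feature on its own the counts were 139 and 133 of 180 features, more because spots were counted singly. Averaged by symbol, Slc38a2 probe 2 went from 1.45 to -0.055 in control and probe 1 from -1.53 to 0.077 in alcoholic rats.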
